A study of Arabidopsis thaliana with 2 samples.

Results

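The windows described here were chosen by their matches, of which more were paternal than maternal in each direction of a cross between Col-0 and Bur-0, 2 accessions of Arabidopsis thaliana. RNA of whole F1 seeds, harvested at 4 days after pollination (DAP), was sequenced from Col-0×Bur-0 (Col-0 mother, Bur-0 father) and from Bur-0×Col-0 (Bur-0 mother, Col-0 father), with the mother emasculated and pollinated by hand and 1 library per cross run on 4 lanes. Whole seeds hold the seed coat, which is maternal tissue, together with the endosperm and the embryo, which carry both parental genomes. Each window is a 71-nt stretch of the TAIR8 genome around 1 Bur-0 SNP, present as a Col-0 and a Bur-0 version, and a match is a 36-nt read placed uniquely on 1 of these versions. Paternal matches are those to the Bur-0 version in Col-0×Bur-0 and to the Col-0 version in Bur-0×Col-0.

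The accession versions of each window were joined by chromosome and start, and the lanes were summed. Of 147349 windows with at least 1 match, 60228 had at least 5 matches in each cross. Of these, 133 had a paternal excess, that is more paternal than maternal matches, in Col-0×Bur-0 as well as in Bur-0×Col-0, which is 0.221% of the windows with 5 matches in each. The windows were thus selected on the matches of both libraries, and the counts and shares below describe them without a test. There was 1 library per cross and hence no spread between plants, and the 95% Wilson intervals stand for counting error alone, as PCR copies of a molecule were not marked.

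Most genes in a seed at this stage are expressed from both alleles in the endosperm, where the mother contributes 2 genomes and the father 1 (2m∶1p). A small set of genes is imprinted, meaning that the allele from one parent is kept silent in the endosperm by DNA methylation or by the Polycomb repressive complex. Genes expressed mainly from the father are called paternally expressed genes (PEGs), and PHERES1 (PHE1), a MADS-box transcription factor gene, is a long known one. Transcripts that the pollen brings or leaves behind are paternal too, and they cannot be told apart from transcripts made in the seed in these libraries. The study also expected genes expressed mainly in the embryo to look paternally biased.

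In total 6773239 matches were counted for Col-0×Bur-0 and 8576779 for Bur-0×Col-0, of which 6.85% and 4.60% were paternal. Lane 1 of Col-0×Bur-0 stood apart. Its window counts differed from those of the other lanes of that cross by 5.46 to 6.24 times the sampling noise, against 0.993 to 1.18 times for all other pairs of lanes within a cross. Without this lane, 97 windows met the rule (0.172% of 56333), of which 94 were among the 133. Of the 39 windows lost, 32 had fewer than 5 matches left in Col-0×Bur-0 and 7 were no longer in excess there. Leaving out lane 2, 3 or 4 of the same cross instead, an alternative chosen after seeing the data, left 105, 108 and 113 windows.

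The labelled tissue was checked by seed coat and endosperm genes. The seed coat genes BAN and LDOX, which act in proanthocyanidin synthesis, had 105 paternal and 94972 maternal, and 99 paternal and 66672 maternal matches in Col-0×Bur-0. In Bur-0×Col-0 they had 70 paternal and 146101 maternal, and 61 paternal and 142139 maternal matches. The endosperm gene FWA, known to be expressed from the mother, had 0 paternal and 22 maternal matches in Col-0×Bur-0 and 2 paternal and 42 maternal matches in Bur-0×Col-0. Its counts came from 1 window. PHE1 had 50 paternal and 33 maternal matches in Col-0×Bur-0, and 54 paternal and 2 maternal matches in Bur-0×Col-0. Since 2 windows of PHE1 were chosen by the rule, its paternal matches are no independent check of the tissue.

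On the 133 windows, 1500 paternal and 415 maternal matches were found in Col-0×Bur-0, a paternal share of 78.3% (95% Wilson interval 76.4% to 80.1%). In Bur-0×Col-0 there were 2084 paternal and 708 maternal matches, a share of 74.6% (73.0% to 76.2%). The windows thus held 0.324% of all paternal matches of Col-0×Bur-0 and 0.528% of those of Bur-0×Col-0. Without lane 1, the share in Col-0×Bur-0 was 78.0%, from 1052 paternal and 296 maternal matches.

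The paternal share of a single window ran from 51.7% to 100% in Col-0×Bur-0 and from 50.7% to 100% in Bur-0×Col-0, with a median of 85.7% in each. The other windows of this depth had a median of 1.48% in Col-0×Bur-0 and 0.645% in the reciprocal cross. No maternal match was found in 52 of the 133 windows in Col-0×Bur-0, in 37 in Bur-0×Col-0 and in 26 in either cross. The share was higher in Col-0×Bur-0 for 59 windows, higher in Bur-0×Col-0 for 46 and equal for 28. It was 90% or more in both crosses for 38 windows, and under 2 paternal in 3 matches in both for 18. The windows therefore spanned the whole range from a bare excess to paternal matches alone. The lower limit of the Wilson interval was above 50% for 74 windows in Col-0×Bur-0, for 76 in Bur-0×Col-0 and for 53 in both. The rule chose windows above 50% on these same counts, so that these numbers are no test of an excess.

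**Figure D1:**
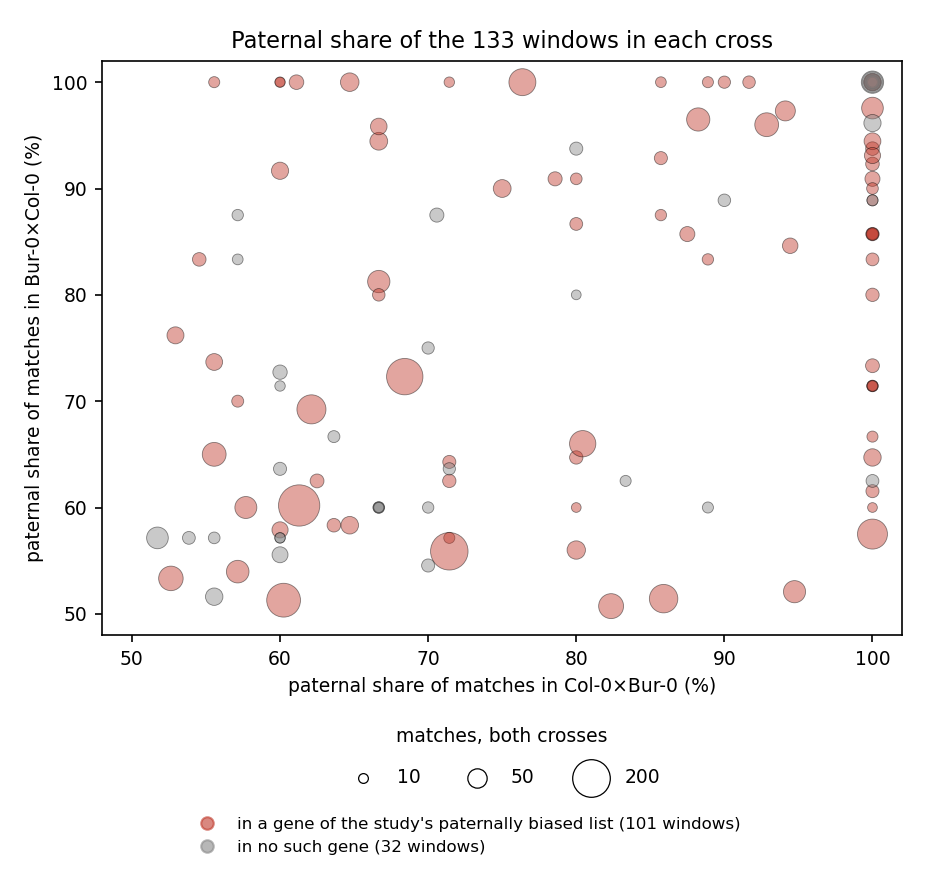
Each circle is 1 of the 133 windows, placed by its paternal share (%) in Col-0×Bur-0 on the x axis and in Bur-0×Col-0 on the y axis, with an area that grows with its matches over both crosses and a colour for whether it lies in a gene of the study's paternally biased list. The windows with no maternal match in Col-0×Bur-0 line the right edge, and the largest circles lie between 50% and 75% in at least 1 cross.

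A paternal excess in a given cross, whatever the other cross showed, was more frequent. In Col-0×Bur-0 2812 windows (4.67% of 60228) had one, and in Bur-0×Col-0 1311 windows (2.18%). The 133 windows made up 4.73% of the 2812 and 10.1% of the 1311. Among the 2679 windows with an excess in Col-0×Bur-0 only, 1899 had no paternal match at all in Bur-0×Col-0, whereas of the 1178 with an excess in Bur-0×Col-0 only, 700 had none in Col-0×Bur-0. In such a window all matches of the cross without paternal matches, and most of those of the other cross, fall on the version of the same accession.

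The 4 counts of a window can also be paired by accession. The paternal Bur-0 count of Col-0×Bur-0 was above the maternal Bur-0 count of Bur-0×Col-0 in 117 of the 133 windows. The paternal Col-0 count of Bur-0×Col-0 was above the maternal Col-0 count of Col-0×Bur-0 in 126, and both held for 110. These are the counts that the rule used, and by the rule at least 1 of these relations must hold in every window, so that they add nothing to it. They were not scaled for the depth of the libraries.

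The windows were shallow. They had a median of 10 matches in Col-0×Bur-0 and 11 in the reciprocal cross, against 33 and 38 in the other windows that reached 5. The deepest had 83 matches in Col-0×Bur-0 and 211 in the reciprocal cross, while other windows reached 144202 and 151183. At least 10 matches in each cross were present in 51 of the 133 windows and at least 20 in 17, and 30 windows had exactly 5 in a cross. The 10 deepest held 30.4% of the 4707 matches. The share of windows that met the rule was 0.655% (82 of 12516) where the cross with fewer matches had 5 to 9, 0.267% (34 of 12753) at 10 to 19, 0.0809% (13 of 16074) at 20 to 49 and 0.0429% (4 of 9332) at 50 to 99. At 100 or more it was 0 of 9553, which allows a share of up to 0.0314%.

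**Figure D2:**
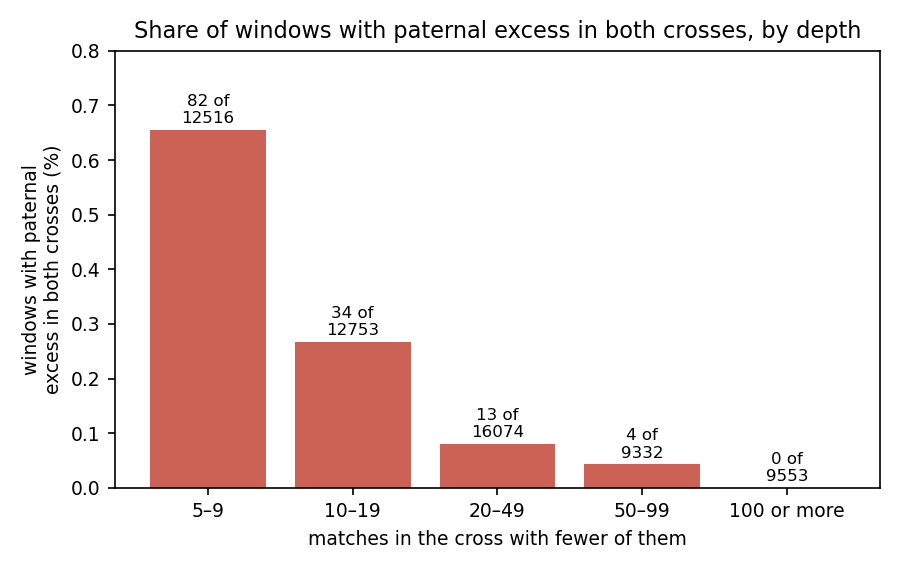
Bars give the share (%) of windows with paternal excess in both crosses among all windows with at least 5 matches in each, by the number of matches in the cross with fewer of them, and the numbers above them give windows in excess and all windows. The share falls with each step in depth, with 82 of the 133 windows in the shallowest class and none in the deepest.

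At the edge of the rule, 26 windows had an excess of a single match in a cross, and 5 of them in both. The deepest of these 5, on chromosome 4 at 17567044, had 5 paternal and 4 maternal matches in Col-0×Bur-0 and 16 paternal and 15 maternal matches in Bur-0×Col-0. Just outside, 25 windows were level in a cross and not below in the other. Among them, a window in AT4G11400 at 6940103 on chromosome 4 had 11 paternal and 11 maternal matches in Col-0×Bur-0 and 24 paternal and 9 maternal matches in Bur-0×Col-0. A further 40 windows were in excess in both crosses but had only 4 matches in a cross, such as that at 12884527 on chromosome 1, in AT1G35183, with 19 paternal and 0 maternal matches in Col-0×Bur-0 and 4 paternal and 0 maternal matches in Bur-0×Col-0. In all, 506 windows with fewer than 5 matches in a cross had an excess in both, of 34747 such windows matched in both crosses.

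The windows lay on all 5 chromosomes. Chromosome 1 held 55 of them (0.341% of its 16113 windows with 5 matches in each cross), chromosome 4 held 27 (0.270% of 10013) and chromosome 3 held 26 (0.224% of 11628). Chromosome 5 held 14 (0.0992% of 14110) and chromosome 2 held 11 (0.132% of 8364). Since neighbouring windows of 1 gene are counted each, these shares are not shares of genes. When windows whose starts lay within 2000 nt were joined, chromosomes 1 to 5 had 26, 5, 19, 12 and 13 clusters, single windows included.

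In all there were 75 clusters, of which 48 were single windows, 16 held 2 windows and 11 held 3 or more. The 11 larger clusters held 53 of the 133 windows. Another window with paternal excess in both crosses lay within 2000 nt of 85 of them (63.9%). Of all 60228 windows with 5 matches in each cross, 94.0% had another of that kind within 2000 nt. These lie far more densely than the 133, so that this share cannot be compared with the 63.9%. Between neighbouring windows on a chromosome 4 gaps were up to 35 nt, 8 were 36 to 70 nt, 46 were 71 to 2000 nt, 5 were longer than 2000 nt but at most 10000 nt, and 65 were longer still. Windows closer than 71 nt share bases, and the 133 windows formed 121 groups that share none. A read could match more than 1 window where SNPs lie close together, and of 4686 reads on the 133 windows 21 matched more than 1 of them. No other matched SNP lay within 35 nt in 103 of the 133 windows (77.4%), against 64.2% of the other windows. Only SNPs with a match count here and the other windows were deeper, so these shares do not compare the spacing of SNPs. Without lane 1 of Col-0×Bur-0 there were 61 clusters, and 54.6% of the 97 windows had another within 2000 nt.

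**Figure D3:**
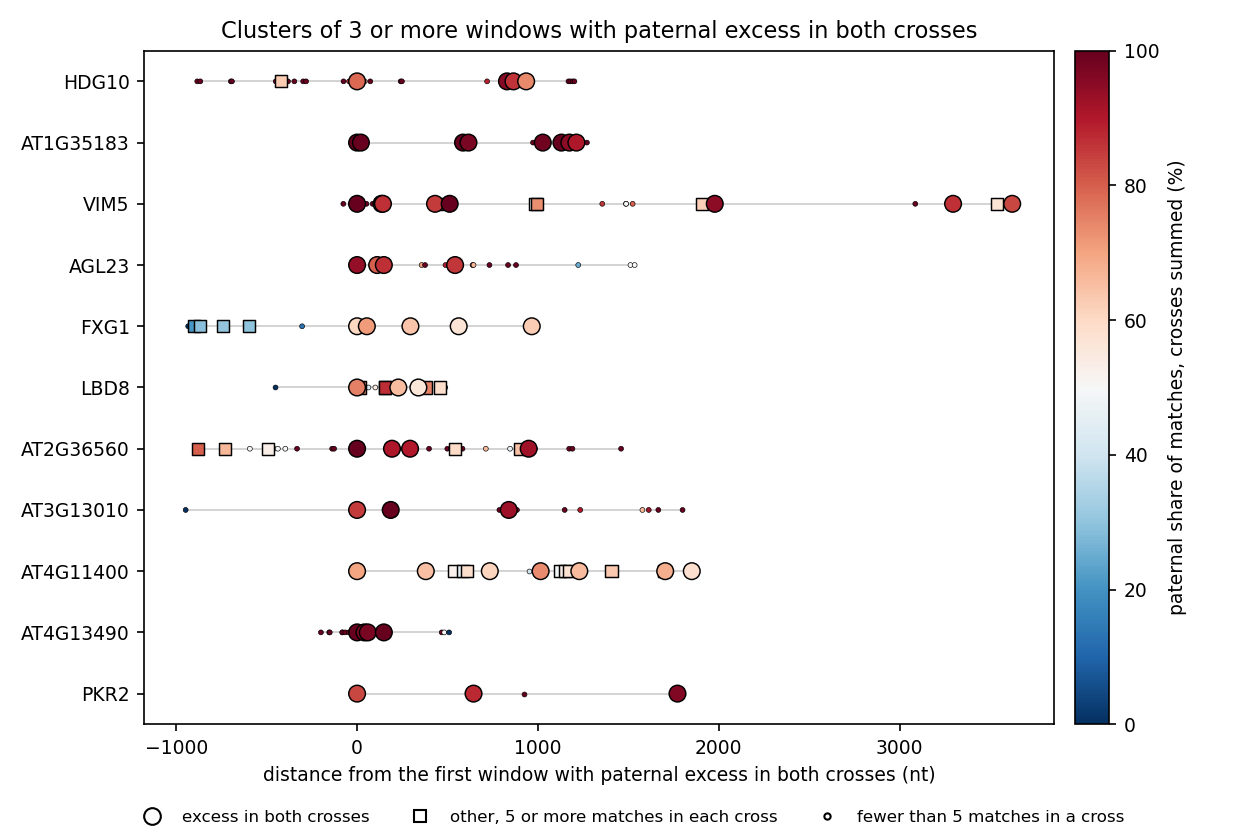
Each line is 1 of the 11 clusters of 3 or more windows, named by the listed gene that holds all or some of its windows. The x axis gives the distance in nt from the first window of the cluster, and the colour gives the paternal share of both crosses summed (%). Circles are windows with paternal excess in both crosses, squares other windows with 5 or more matches per cross and dots windows with fewer, shown from 1000 nt before to 1000 nt after the cluster. The dots within the AT1G35183 and HDG10 clusters and just before the AT4G13490 cluster are mostly as dark as the circles beside them, and the squares before the FXG1 cluster are blue, that is mostly maternal.

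Genes were assigned from the study's list of paternally biased genes. All but 1 of them, 118 in number, could be placed on a run of neighbouring windows through their summed matches. The study called the listed genes against 2m∶1p, so a listed gene need not have more paternal than maternal matches. The study drew up the list from the same libraries, so that a window in a listed gene is no independent evidence of paternal expression. The 118 genes held 101 of the 133 windows (75.9%), in 48 genes, of which 23 held 1 such window and 25 held 2 or more. Of all 234 windows with 5 or more matches per cross in the placed genes, the 101 made up 43.2%. In 35 of the 48 genes no window of this depth was left that was not in excess in both, but 19 of the 35 had a single such window, the one for which the gene was counted. The study's filtered list of 27 PEGs kept genes expressed in the endosperm and left out those expressed mainly in the embryo. Of these 27 genes, 15 held 43 of the windows. Of the other placed genes, 47 had no window with 5 matches in each cross. Without lane 1 of Col-0×Bur-0, the 97 windows lay in 42 genes.

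Among the named groups, the chromatin genes held 19 windows in 3 of 4 genes. These had 204 paternal and 54 maternal matches in Col-0×Bur-0 and 214 paternal and 42 maternal matches in Bur-0×Col-0. Windows with 5 matches in each cross, in excess or not, numbered 13 in VIM5, 14 in AT4G11400, 5 in PKR2 and 0 in SUVH7 (AT1G17770). VIM5 (AT1G57800), of the VARIANT IN METHYLATION family whose members bind methylated cytosine, held 8 windows at chr1:21412271-21415964, spread over 3694 nt. They had 100 paternal and 4 maternal matches in Col-0×Bur-0 (96.2%, interval 90.5% to 98.5%), and 66 paternal and 9 maternal matches in Bur-0×Col-0 (88.0%, 78.7% to 93.6%). In Col-0×Bur-0, 5 of these 8 windows had no maternal match. Another 5 windows with 5 matches in each cross lay between them and were not in excess in both. One of these, at 21412715, had 14 paternal and 0 maternal matches in Col-0×Bur-0 and 3 of each in Bur-0×Col-0. Another, 1907 nt from the first of the 8, had 2 paternal and 16 maternal matches in Col-0×Bur-0 and 24 paternal and 0 maternal matches in Bur-0×Col-0. Over all its windows VIM5 had 172 paternal and 21 maternal matches in Col-0×Bur-0 and 147 paternal and 38 maternal matches in Bur-0×Col-0.

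PKR2 (AT4G31900), a PICKLE-related chromatin remodelling factor, held 5 windows in 2 clusters, at chr4:15433129-15433445 and chr4:15436342-15438184. The first cluster had 11 paternal and 3 maternal matches in Col-0×Bur-0 and 10 paternal and 0 maternal matches in Bur-0×Col-0. The second had 23 paternal and 4 maternal matches in Col-0×Bur-0 and 53 paternal and 2 maternal matches in Bur-0×Col-0. AT4G11400 lay in a cluster of 7 windows at chr4:6938696-6940617, of which 6 were within the placed gene. Here the excess was smaller, with 73 paternal and 45 maternal matches in Col-0×Bur-0 (61.9%, interval 52.9% to 70.1%) and 89 paternal and 34 maternal matches in Bur-0×Col-0 (72.4%, 63.9% to 79.5%). In between lay 8 other windows with 5 matches in each cross.

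The MADS-box genes PHE1 and AGL23 held 6 windows, with 70 paternal and 23 maternal matches in Col-0×Bur-0 and 70 paternal and 9 maternal matches in Bur-0×Col-0. The 2 windows of PHE1 (AT1G65330), at chr1:24270443-24270644, had 38 paternal and 20 maternal matches in Col-0×Bur-0 (65.5%, interval 52.7% to 76.4%) and 29 paternal and 1 maternal match in Bur-0×Col-0 (96.7%, 83.3% to 99.4%). AGL23 (AT1G65360), a MADS-box gene known from female gametophyte development, held 4 windows at chr1:24285082-24285694, with 32 paternal and 3 maternal matches in Col-0×Bur-0 (91.4%) and 41 paternal and 8 maternal matches in Bur-0×Col-0 (83.7%). Maternal matches at PHE1 came almost wholly from Col-0×Bur-0, whereas at AGL23 they were present in both crosses. AGL58 (AT1G28450), an AGAMOUS-like MADS-box gene of the list that was left out of this group, had 2 windows with 5 matches in each cross, neither of them in excess in both. Over all its windows AGL58 had 14 paternal and 8 maternal matches in Col-0×Bur-0 and 41 paternal and 22 maternal matches in Bur-0×Col-0.

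In a group of 4 homeodomain and DNA-binding genes (HDG10, NF-YC7, NF-YC5 and AT5G54350), 3 held 7 windows, with 53 paternal and 8 maternal matches in Col-0×Bur-0 and 87 paternal and 11 maternal matches in Bur-0×Col-0. HDG10 (AT1G34650), a class IV homeodomain gene, held 5 of them, 4 in a cluster at chr1:12696733-12697738 with 30 paternal and 8 maternal matches in Col-0×Bur-0 (78.9%) and 48 paternal and 7 maternal matches in Bur-0×Col-0 (87.3%). Of these 8 maternal matches, 7 lay in 1 window, at 12697668, which had 11 paternal and 7 maternal matches in Col-0×Bur-0 and 9 paternal and 0 maternal matches in Bur-0×Col-0. NF-YC7 (AT5G50470) and NF-YC5 (AT5G50490), which encode subunits of the CCAAT-binding factor NF-Y, held 1 window each. That of NF-YC7 had 5 paternal and 0 maternal matches in Col-0×Bur-0 and 27 paternal and 2 maternal matches in Bur-0×Col-0. That of NF-YC5 had 12 paternal and 0 maternal matches in Col-0×Bur-0 and 6 paternal and 1 maternal match in Bur-0×Col-0.

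The genes grouped as pollen and pectin related had 11 of 22 members with a window, 16 windows in all, and in these windows the highest paternal share of the groups in both crosses. The windows had 149 paternal and 9 maternal matches in Col-0×Bur-0 (94.3%) and 154 paternal and 13 maternal matches in Bur-0×Col-0 (92.2%). PGA4 (AT1G02790), a polygalacturonase gene, held 2 overlapping windows at chr1:611054-611163 with 30 paternal and 0 maternal matches in Col-0×Bur-0 and 18 paternal and 3 maternal matches in Bur-0×Col-0. sks13 (AT3G13400), of the SKU5-similar family, had 28 paternal and 1 maternal match in Col-0×Bur-0 and 18 paternal and 2 maternal matches in Bur-0×Col-0 in 2 windows. AT3G01270, which encodes a pectate lyase, had 12 paternal and 0 maternal matches in Col-0×Bur-0 and 10 paternal and 0 maternal matches in Bur-0×Col-0 in 2 windows. BCP1 (AT1G24520), a homologue of a Brassica campestris pollen protein, had 9 paternal and 0 maternal matches in Col-0×Bur-0 and 11 paternal and 4 maternal matches in Bur-0×Col-0 in its window. AGP6 (AT5G14380), a pollen arabinogalactan protein gene, had 6 paternal and 3 maternal matches in Col-0×Bur-0 and 8 paternal and 2 maternal matches in Bur-0×Col-0. PME7 (AT1G44980), a pectin methylesterase gene of the list described further on, was left out of this group. It held no window in excess in both crosses and had 502 paternal and 405 maternal matches in Col-0×Bur-0 and 105 paternal and 74 maternal matches in Bur-0×Col-0. The group also contains AMR1 (AT1G65770), an ascorbic acid mannose pathway regulator, whose name is not that of a pollen gene. Whether pollen transcripts have a part in these counts was not tested.

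Of 7 genes related to ubiquitin ligases, 4 held 7 windows, with 90 paternal and 18 maternal matches in Col-0×Bur-0 and 88 paternal and 41 maternal matches in Bur-0×Col-0. Most came from MEO (AT2G20160), a SKP1-like gene, whose 2 windows at chr2:8707024-8707167 had 53 paternal and 13 maternal matches in Col-0×Bur-0 (80.3%) and 47 paternal and 28 maternal matches in Bur-0×Col-0 (62.7%). AT4G10160 had 20 paternal and 0 maternal matches in Col-0×Bur-0 and 22 paternal and 2 maternal matches in Bur-0×Col-0 in 2 windows. Of 3 genes of hormone synthesis, only TAR1 (AT1G23320), of the tryptophan aminotransferase family of auxin synthesis, held a window, with 4 paternal and 1 maternal match in Col-0×Bur-0 and 3 paternal and 2 maternal matches in Bur-0×Col-0. The groups do not take in every listed gene of a kind, and the transcription factor genes LBD8, ERF10 and BBM (AT5G17430), for example, were counted with the rest. The remaining 77 listed genes, of which 76 were placed, held 45 windows in 24 genes, with 671 paternal and 214 maternal matches in Col-0×Bur-0 and 1164 paternal and 492 maternal matches in Bur-0×Col-0.

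The 20 deepest windows had at least 64 matches over both crosses, and 19 lay in listed genes. The deepest, at chr4:11140955-11141025 in AT4G20800, had 19 paternal and 12 maternal matches in Col-0×Bur-0 (61.3%, interval 43.8% to 76.3%) and 127 paternal and 84 maternal matches in Bur-0×Col-0 (60.2%, 53.5% to 66.6%). Its lanes 1 to 4 had 1, 7, 4 and 7 paternal and 3, 3, 5 and 1 maternal matches in Col-0×Bur-0, and 33, 33, 35 and 26 paternal and 23, 20, 24 and 17 maternal matches in Bur-0×Col-0. The excess was thus present in every lane of Bur-0×Col-0 and in 2 lanes of Col-0×Bur-0. The other window of that gene, at 11140405, had 4 paternal and 3 maternal matches in Col-0×Bur-0 and 34 paternal and 29 maternal matches in Bur-0×Col-0.

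FXG1 (AT1G67830), an alpha-fucosidase gene, held 5 of the 20 deepest windows, and these were all of its matched windows. Over chr1:25435506-25436542 they had 126 paternal and 48 maternal matches in Col-0×Bur-0 (72.4%, interval 65.3% to 78.5%) and 269 paternal and 174 maternal matches in Bur-0×Col-0 (60.7%, 56.1% to 65.2%). From the first to the last, the windows had 45, 39, 18, 14 and 10 paternal and 18, 18, 1, 3 and 8 maternal matches in Col-0×Bur-0. In Bur-0×Col-0 they had 76, 94, 25, 35 and 39 paternal and 60, 36, 23, 34 and 21 maternal matches. The fourth, with 35 paternal and 34 maternal matches in Bur-0×Col-0, was in excess there by a single match.

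LBD8 (AT2G19510), a LOB-domain transcription factor gene, held 3 of the 20 deepest, at chr2:8460327-8460736. They had 67, 41 and 50 paternal and 11, 25 and 33 maternal matches in Col-0×Bur-0, and 18, 36 and 40 paternal and 17, 16 and 38 maternal matches in Bur-0×Col-0. The excess was large in Col-0×Bur-0 (69.6%, interval 63.3% to 75.2%) and small in Bur-0×Col-0 (57.0%, 49.3% to 64.3%). Over all its windows LBD8 had 289 paternal and 82 maternal matches in Col-0×Bur-0 and 108 paternal and 111 maternal matches in Bur-0×Col-0. Summed over the gene, 43 of the 48 genes with such a window were in paternal excess in both crosses. The 5 that were not were LBD8, AT3G24542, AT1G61330, AT1G71870 and AT3G49540.

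The window of AT3G24542 at 8956600 on chromosome 3 had 6 paternal and 0 maternal matches in Col-0×Bur-0 and 69 paternal and 51 maternal matches in Bur-0×Col-0. Over all its windows AT3G24542 had 19 paternal and 1 maternal match in Col-0×Bur-0. In Bur-0×Col-0 it had 179 paternal and 283 maternal matches, so that the gene was not in excess there. The window of AT2G44925 at 18535126 on chromosome 2 had 42 paternal and 13 maternal matches in Col-0×Bur-0 and 46 paternal and 0 maternal matches in Bur-0×Col-0. The first MEO window, at 8707024, had 37 paternal and 9 maternal matches in Col-0×Bur-0 and 33 paternal and 17 maternal matches in Bur-0×Col-0. In the first of these windows, maternal matches were found in Bur-0×Col-0 only, in the second in Col-0×Bur-0 only and in the third in both.

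At AT4G31760 the window at 15368916 on chromosome 4 had 20 paternal and 18 maternal matches in Col-0×Bur-0 and 24 paternal and 21 maternal matches in Bur-0×Col-0. At AT1G32583 the window at 11787548 on chromosome 1 had 15 paternal and 11 maternal matches in Col-0×Bur-0 and 24 paternal and 16 maternal matches in Bur-0×Col-0. Both lay close to an even share. By contrast, the window of ERF10 (AT1G03800), an ethylene response factor gene, at 957219 on chromosome 1 had 15 paternal and 2 maternal matches in Col-0×Bur-0 and 55 paternal and 2 maternal matches in Bur-0×Col-0. The deepest window of AT4G11400, at 6939711, had 24 paternal and 12 maternal matches in Col-0×Bur-0 and 26 paternal and 6 maternal matches in Bur-0×Col-0. Among the 20 deepest, the interval lay above 50% for 14 in Col-0×Bur-0 and for 11 in the reciprocal cross. This is no test of an excess, as the rule used the same counts. Of the 20, 6 were under 2 paternal in 3 matches in both crosses, and 8 were in excess in all 4 lanes of both.

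**Figure D4:**
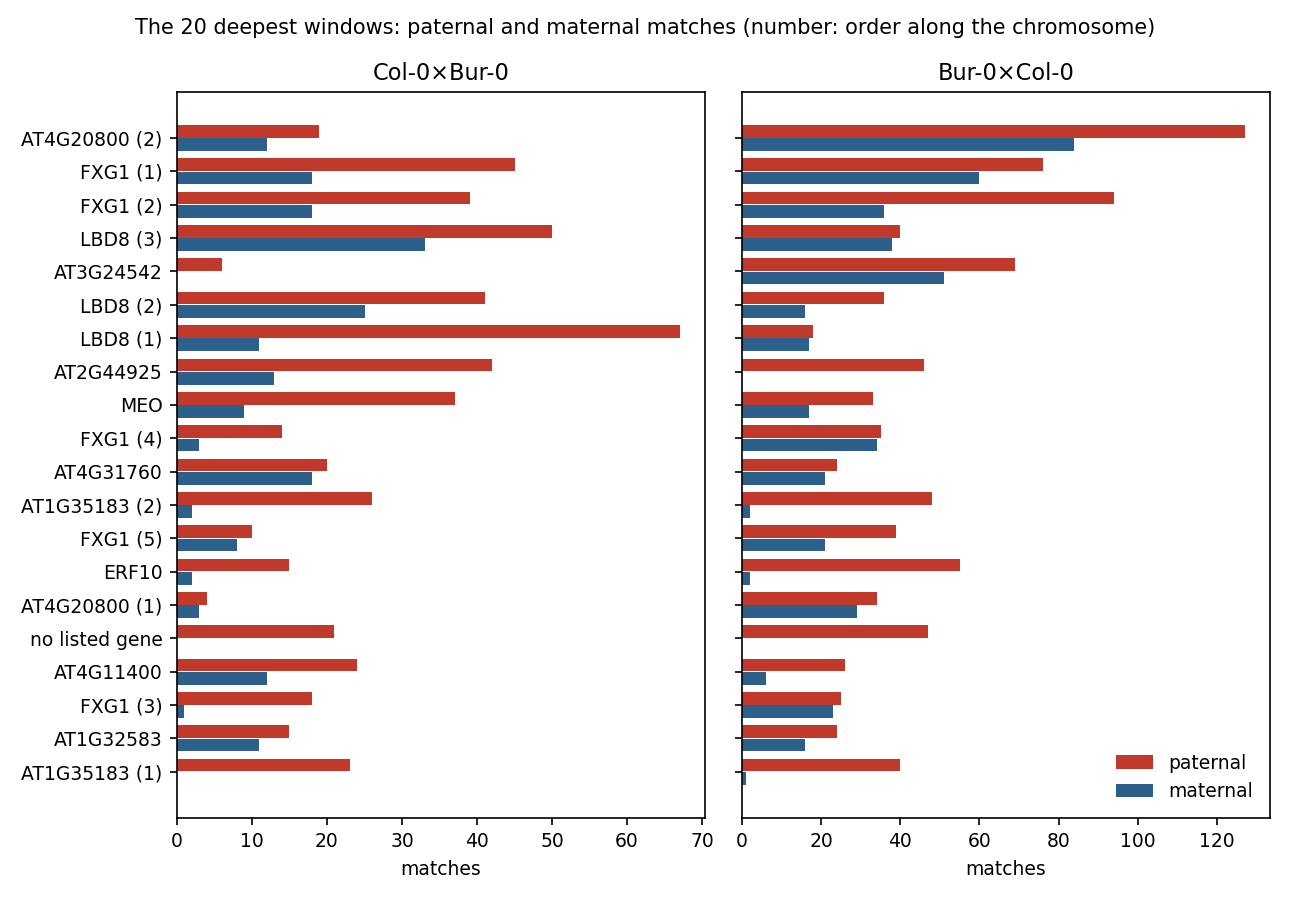
Bars give the paternal (red) and maternal (blue) matches of the 20 deepest windows, from most to fewest matches, in Col-0×Bur-0 on the left and in Bur-0×Col-0 on the right, on separate axes. Maternal bars reach 84 matches at the AT4G20800 window at the top, and are absent or nearly so at the windows of AT1G35183 and at the window in no listed gene.

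The remaining deep windows belonged to a single run around AT1G35183. At chr1:12883383-12884666, 8 windows in excess in both crosses had 148 paternal and 3 maternal matches in Col-0×Bur-0 (98.0%, interval 94.3% to 99.3%) and 236 paternal and 5 maternal matches in Bur-0×Col-0 (97.9%, 95.2% to 99.1%). It was the cluster with the highest paternal share in Bur-0×Col-0 among the 11 of 3 or more windows, and was second to AT4G13490 in Col-0×Bur-0. Of the 8 windows 3 lay in the placed gene and 5 outside it, 4 of these on the side of the lower coordinates. Their paternal matches were 22, 24, 21, 13, 23, 15, 26 and 4 in Col-0×Bur-0, from the first to the last. For Bur-0×Col-0 they were 12, 33, 47, 25, 40, 16, 48 and 15. The 3 among the 20 deepest, at 12883969, 12884410 and 12884557, had 0, 0 and 2 maternal matches in Col-0×Bur-0 and likewise 0, 1 and 2 in Bur-0×Col-0. The outside windows at 12883404 and 12883969 had no maternal match in either cross, and were the deepest of the 26 such windows. The 3 other matched windows of the run were paternal only, so that the run of 11 windows had 172 paternal and 3 maternal matches in Col-0×Bur-0 and 250 paternal and 5 maternal matches in Bur-0×Col-0. In the 5000 nt before it no window was matched. After it, from 1015 nt on, 31 matched windows between starts 12885669 and 12887390 had 0 paternal and 63 maternal matches in Col-0×Bur-0 and 0 paternal and 125 maternal matches in Bur-0×Col-0. The paternal run was thus bounded on this side by windows with maternal matches only.

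The next deepest windows with no maternal match in either cross lay in listed genes. That of AT1G49290 at 18236412 on chromosome 1 had 8 paternal matches in Col-0×Bur-0 and 33 in the reciprocal cross, which allows a maternal share of up to 37.5% and 9.09%. AMR1 had 9 paternal matches in Col-0×Bur-0 and 32 in the reciprocal cross in its only matched window. RALFL8 (AT1G61563), which encodes a peptide of the rapid alkalinization factor family, had 13 in Col-0×Bur-0 and 23 in the reciprocal cross. For the windows at 12883404 and 12883969 these limits were 12.5% and 14.3% in Col-0×Bur-0 but 9.09% and 6.38% in Bur-0×Col-0.

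Besides that at AT1G35183, 3 clusters of 3 or more windows had a paternal share of 90% or more in both crosses. AT4G13490 held 4 windows at chr4:7839263-7839481 with 43 paternal and 0 maternal matches in Col-0×Bur-0 and 58 paternal and 2 maternal matches in Bur-0×Col-0. AT2G36560 held 4 at chr2:15336294-15337313 with 27 paternal and 2 maternal matches in Col-0×Bur-0 and 40 paternal and 3 maternal matches in Bur-0×Col-0. Between these 4 lay 2 other windows with 5 matches in each cross, which the share leaves out. They had 1 and 5 paternal and 4 and 0 maternal matches in Col-0×Bur-0. In Bur-0×Col-0 they had 5 and 6 paternal and 0 and 6 maternal matches. AT3G13010 held 3 at chr3:4162913-4163822 with 16 paternal and 1 maternal match in Col-0×Bur-0 and 27 paternal and 3 maternal matches in Bur-0×Col-0.

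Outside the placed genes lay 32 windows. Of these, 6 belonged to the clusters at AT1G35183 and AT4G11400. The other 26, of which 24 were single, were shallow, with a median of 16.5 and at most 64 matches over both crosses. They had 172 paternal and 85 maternal matches in Col-0×Bur-0 (66.9%) and 168 paternal and 93 maternal matches in Bur-0×Col-0 (64.4%), and only 2 of them lacked maternal matches in Col-0×Bur-0 and none in Bur-0×Col-0. An excess of a single match in a cross was present in 14 of the 32 windows outside and in 12 of the 101 inside. The deepest of the 26, at 7727752 on chromosome 1, had 15 paternal and 14 maternal matches in Col-0×Bur-0 and 20 paternal and 15 maternal matches in Bur-0×Col-0. One with few maternal matches, at 9282674 on chromosome 5, had 9 paternal and 1 maternal match in Col-0×Bur-0 and 8 paternal and 1 maternal match in Bur-0×Col-0, and another, at 22259489 on chromosome 1, had 5 paternal and 0 maternal matches in Col-0×Bur-0 and 8 paternal and 1 maternal match in Bur-0×Col-0. The window at 22259489 started 163 nt after the last window of the listed gene AT1G60400, all of whose own windows had fewer than 5 matches in a cross. These 3 windows were chosen after their values were seen. Windows in no listed gene may lie in other genes, and the TAIR8 annotation was not used here.

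Conversely, 23 placed genes of the list had windows with 5 matches in each cross but none in excess in both. Of their 91 such windows, 48 were in excess in Col-0×Bur-0 only, 30 in Bur-0×Col-0 only and 13 in neither, and 17 of the 23 genes had windows of both one-sided kinds. PME7, chosen here after its values were seen, is an example. Its window at 17006797 on chromosome 1 had 501 paternal and 0 maternal matches in Col-0×Bur-0 and 0 paternal and 74 maternal matches in Bur-0×Col-0, all of them to the Bur-0 version. Its window at 17007222 had 0 paternal and 405 maternal matches in Col-0×Bur-0 and 105 paternal and 0 maternal matches in Bur-0×Col-0, all to the Col-0 version. Summed over the gene, 8 of the 23 were in paternal excess in both crosses.

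Windows too shallow for the rule were not used to choose the 133. Those that lay 71 to 2000 nt from one of the 133, and share no base with it, were 490. Of the 243 that were matched in both crosses, 76 (31.3%) were in paternal excess in both, against 396 of 34258 (1.16%) of the shallow windows more than 5000 nt away. Near the 107 windows in a cluster with a listed gene, 71 of 153 (46.4%) were in excess in both, and near the other 26 windows 5 of 90 (5.56%). The list was drawn up from all windows of a gene, shallow ones included, so that the first of these shares is not independent of it. In matches, the 490 shallow neighbours had 648 paternal and 510 maternal in Col-0×Bur-0 (56.0%, interval 53.1% to 58.8%) and 655 paternal and 1298 maternal in Bur-0×Col-0 (33.5%, 31.5% to 35.7%). The 86090 distant shallow windows had a paternal share of 12.6% in Col-0×Bur-0 and 2.21% in the reciprocal cross. At the same distance lay 159 windows with 5 or more matches in each cross that had not met the rule. Of their matches, 9.89% were paternal in Col-0×Bur-0 and 8.49% in the reciprocal cross, against 6.58% and 4.74% in windows of that depth more than 5000 nt away. Without lane 1, the share of the neighbours in Col-0×Bur-0 was 59.4%.

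Repeated reads were described through the starts and strands of the matches. The paternal matches of a window had a median of 6 different starts and strands in each cross, up to 26 in Col-0×Bur-0 and 36 in the reciprocal cross. A single start made up more than 50% of the paternal matches in 3 windows in Col-0×Bur-0 and in 10 in the reciprocal cross. When matches of 1 start, strand and allele were counted once per lane, 1298 paternal and 371 maternal matches were left in Col-0×Bur-0 (77.8%) and 1655 paternal and 570 maternal matches in Bur-0×Col-0 (74.4%). By this count 14 of the 133 windows no longer met the rule. This counting kept 86.5% of their paternal matches in Col-0×Bur-0 and 79.4% in the reciprocal cross. Copies of a molecule in different lanes were still counted in each lane, so that these shares do not measure PCR copies.

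The labels list the 4 lanes of a cross under 1 library. By the read names, lane 4 of each cross came from another instrument run than lanes 1 to 3. Whether lane 1 of Col-0×Bur-0, which stood apart, holds the same library was not tested. Summed over the 133 windows, the paternal share was 75.9% to 79.6% in the 4 lanes of Col-0×Bur-0 and 74.3% to 75.2% in those of Bur-0×Col-0, with 79.0% in lane 1 of Col-0×Bur-0. The rule used the sum of these lanes, so that high shares in them are no independent evidence of an excess. Single windows were in excess in all 4 lanes in 44 cases in Col-0×Bur-0, in 56 in Bur-0×Col-0 and in 30 in both, since many had no more than a few matches per lane.

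**Figure D5:**
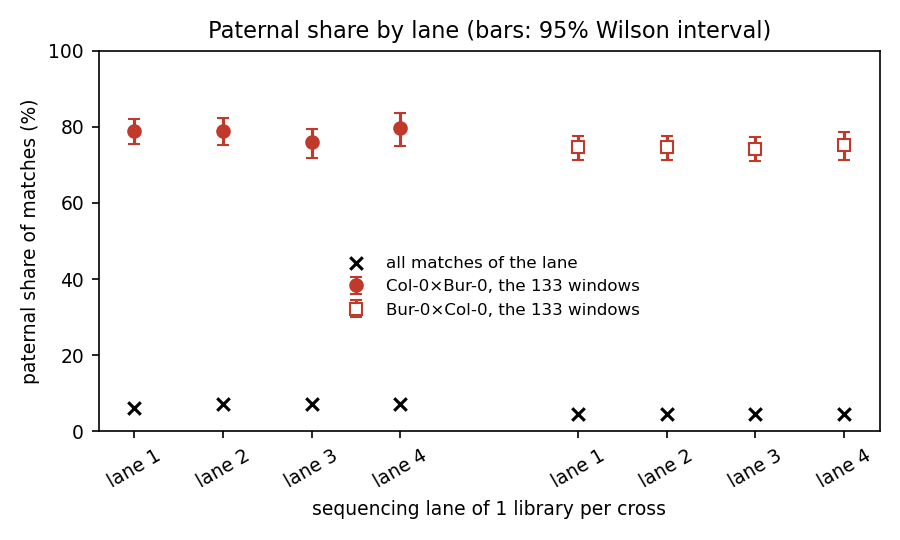
Points give the paternal share (%) of the matches to the 133 windows in each of the 4 lanes of Col-0×Bur-0 (filled circles) and Bur-0×Col-0 (open squares), with 95% Wilson intervals for counting error, and crosses give the paternal share of all matches of the lane. The 8 points lie between 74.3% and 79.6% with overlapping intervals, and the crosses between 4.59% and 7.09%. The windows were chosen for paternal excess on the sum of these lanes, so that the distance between points and crosses follows from the rule.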

How the data were processed

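The authors placed the 36-nt reads of 1 library per cross with vmatch on 71-nt windows around Bur-0 SNPs of the TAIR8 sequence, allowing up to 2 mismatches and keeping matches unique among the Col-0 and Bur-0 windows. The deposited files hold 1 line per match, with no counts, gene names or sequences. Matches were counted here per window, accession and lane, and lanes were summed. No normalization was applied and no test was made, because the rule used these counts. Genes of the study's lists were placed on the run of neighbouring windows with equal summed counts, so the sums equal the listed ones by construction; AT5G26692 could not be placed. Runs with the same sums elsewhere were absent for 44 of the 48 genes named. Symbols came from the RefSeq annotation TAIR10.1, by locus. The 133 windows, gene groups and rules for naming were chosen with earlier results of these data known. Named are the 20 deepest windows, the 5 deepest without a maternal match, clusters of 3 or more, and listed genes by group. Wilson intervals are at 95%, and the limit for 0 counts is 3 counts. The alternatives changed the minimum, the counting, the lanes, the size of the excess and the distances. The rule, the clustering and the placement of genes were tested on simulated data. The simulated windows were almost wholly paternal or almost wholly maternal, so windows near an even share were not tried. Python 3.11.15, NumPy 2.4.6, pandas 2.3.3 and Matplotlib 3.10.9 were used. PCR, microarray and methylation data were not analysed here.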

Additional observations from a re-analysis of the deposited data

How the results depend on the processing

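No paired analysis was possible because each cross had 1 library, under which its 4 lanes are listed. A minimum of 3 matches gave 248 windows in 134 clusters, a minimum of 10 gave 51 windows in 28 clusters and 23 genes, and a minimum of 20 gave 17 windows in 10 clusters and 9 genes. Requiring at least 2 times as many paternal matches gave 75 windows in 41 clusters. Without lane 1 of both crosses 83 windows were left, and the share with another within 2000 nt was 51.8%, against 50.5% without lane 3 of both crosses and 54.6% without lane 1 of Col-0×Bur-0. Fewer lanes also mean fewer windows with 5 matches. Shallow neighbours within 1000 nt had a paternal share of 61.1% in Col-0×Bur-0 and 43.5% in the reciprocal cross, and those within 5000 nt had 31.6% and 14.5%. In Col-0×Bur-0 it was 59.2% with each start counted once per lane and, in an alternative chosen after seeing the data, 59.4% without lane 1. The counts stayed within 1.5 times and the shares within their intervals under the other alternatives that were run. With 82 of the 133 windows under 10 matches in a cross, depth limits what a single window shows.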
